A study of Elaeis guineensis with 9 samples.

Results

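Leaf transcript levels of oil palms from the cross Deli x SP540 were compared with those from the cross Deli x LaMe. Oil palm, Elaeis guineensis, is the tropical palm whose fruit gives palm oil. The compared libraries were 3 of Deli x SP540 and 3 of Deli x LaMe, 6 of the 9 in the series, chosen by the population named in the labels. In each population 1 library came from the low, 1 from the medium and 1 from the high oil yield class, set after 4 years of yield records, and libraries were paired across populations by yield class. Per the labels, the palms of both populations were of the Tenera cultivar, were 7 years old and grew in 1 field, and RNA came from leaf tissue of frond 17. The other 3 libraries, of Deli x Yangambi, counted towards which rows were tested and entered the statistical fit only to estimate the spread between libraries. Their levels are given where they add to a result. The labels speak of individual trees but do not say whether a library held 1 palm or several. The p-values therefore reflect only how much these libraries vary beyond population and yield class. That spread can hold technical variation, variation between palms and differences particular to a yield class, which cannot be told apart. With 1 library per population and yield class, a difference that holds in some yield classes only could not be tested.

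Tenera is the thin-shelled commercial fruit form, bred by crossing thick-shelled dura with shell-less pisifera palms, and Deli is a dura stock long used as the mother side of such crosses. A plant gene can give several transcripts by alternative start, splice or end sites, and RefSeq, the sequence collection whose accessions the table uses, lists each as a transcript model of its own. The unit here is a row of the table, which is such a model. Accessions that start with NM are curated mRNA models, those with XM are predicted mRNA models and those with XR are predicted non-coding models. Values are in TPM, the share of transcripts scaled to a fixed total, which are corrected for transcript length and add up to 1000000 in every library. The gene table used for names pairs 61.6% of the rows with a gene and gives most of those genes a LOC number with no description of their product. Roles are therefore stated only for genes with a symbol, and most genes below are known only by their LOC numbers.

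Of the 51490 transcript rows, 30576 had at least 1 TPM in 3 or more of the 9 libraries and were tested. Depth is unknown, since TPM values do not keep it. SP540 libraries had 27048 to 28320 rows at 1 TPM or more, and LaMe libraries had 26435 to 26991, so that the SP540 libraries lay above the LaMe libraries without overlap. The highest number belonged to the medium-yield SP540 library. The median log2 difference of all tested rows, SP540 minus LaMe, was 0.08. It was 0.012 after scaling by median-ratio size factors and -0.009 after quantile normalization. The results under these scalings are given in the closing section. As a limited check of the tissue label, CAT2, a catalase, which breaks down hydrogen peroxide, was at 4469 to 7189 TPM in SP540 and 5206 to 6399 TPM in LaMe libraries. On its own this gene does not establish the tissue, and leaf markers known by product description could not be looked up. Of the MADS-box genes looked for, which specify flower organs, 8 had rows. These summed to 4.98 to 6.23 TPM in SP540 and 2.66 to 4.84 TPM in LaMe libraries. DEF1 was the only one of them above 1 TPM in any library, and AGL2-5 and GLO1 were listed at 0 in all 9 libraries. The part of these genes in the results was not tested. In such bulk tissue, fewer cells of a type and less RNA per cell cannot be told apart.

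In all, 74 rows passed the test, a limma model of log2(TPM + 1) with population and yield class as terms and a Benjamini-Hochberg adjusted p under 0.05. They were 0.242% of the rows tested. Of them 49 were higher in SP540 (0.160% of rows tested) and 25 were lower (0.0818%). Rows of this kind are said to be called, and all differences below are SP540 minus LaMe on the log2(TPM + 1) scale, which understates the change of rows at low TPM. The median difference was 3.13 among rows called higher, with a range of 0.96 to 6.04. Among rows called lower it was -2.80, with a range of -5.73 to -1.10. The median absolute difference of all tested rows was 0.27. The 49 rows called higher summed to 2590.0 to 2786 TPM per SP540 library, against 328 to 343 TPM per LaMe library and 2205 to 2464 TPM per Yangambi library. The 25 rows called lower summed to 232 to 291 TPM in SP540, against 1199.9 to 1252 TPM in LaMe and 439 to 530 TPM in Yangambi libraries. These rows were chosen for their difference between the same SP540 and LaMe libraries, so the gap between these populations was built in. The sums include rows of genes that were not called when their rows were added up, as described below. At an unadjusted p under 0.05, 2058 rows were higher and 1015 were lower in SP540, together 10.1% of the rows tested.

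**Figure D1:**
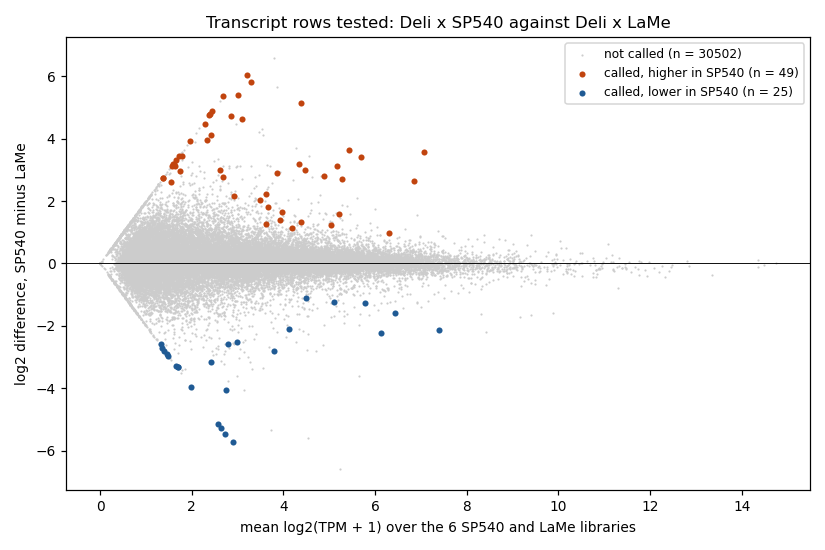
Each point is 1 of the 30576 tested rows, with its mean log2(TPM + 1) over the 6 SP540 and LaMe libraries on the x axis and its log2 difference, SP540 minus LaMe, on the y axis. Red points are the 49 rows called higher and blue points the 25 rows called lower in SP540; points along the slanted left edges are rows at or near 0 TPM in the other population.

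Many of the called rows were close to absent in the lower population. The LaMe mean was under 1 TPM for 24 of the 49 rows called higher, and 10 of those were listed at 0 in all 3 LaMe libraries. The SP540 mean was under 1 TPM for 14 of the 25 rows called lower, and 9 of those were listed at 0 in all 3 SP540 libraries. SP540 and LaMe libraries did not overlap for any of the 74 rows. Across all tested rows, 11.2% had all SP540 libraries above all LaMe libraries and 5.72% had them below, so that non-overlap on its own was common.

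Among called rows paired with a gene and with a mean of at least 5 TPM in SP540, the 12 with the highest positive difference, 1 per gene, are described first. The neighbouring genes LOC105044074 and LOC105044117 led them. LOC105044074 had 85.1, 71.2 and 65.2 TPM in the low, medium and high yield SP540 libraries, against 0, 0 and 0.431 TPM in the LaMe libraries in that order (difference 6.04, SE 0.309, limma adjusted p = 0.00114). LOC105044117 had 90.5, 70.0 and 60.8 TPM in SP540, against 0.717, 0.303 and 0 TPM in LaMe (5.82, SE 0.313, adjusted p = 0.00115). In both genes SP540 ran downward with yield class, with 1 library per class, and the groups were far apart. The levels of the genes were also alike in Yangambi, at 48.8, 102 and 52.3 TPM for LOC105044074 and 45.0, 102 and 58.5 TPM for LOC105044117.

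LOC105036243 was higher too, at 176, 80.2 and 133 TPM in SP540, against 1.90, 2.09 and 3.76 TPM in LaMe (difference 5.15, SE 0.274, adjusted p = 0.00115). Its only row is a non-coding model, although the gene table lists the gene as protein-coding. Its mean was 50.1 times as high in SP540, and Yangambi libraries lay between the populations at 62.8 to 66.4 TPM. LOC105058399 had 34.6, 59.3 and 32.5 TPM in SP540 and was listed at 0 for each LaMe library (5.38, SE 0.433, adjusted p = 0.00611). LOC105052341 was likewise listed at 0 in LaMe, with 11.9, 20.3 and 11.3 TPM in SP540 (3.91, SE 0.283, adjusted p = 0.00384). In LOC105058399 and LOC105052341 the medium-yield SP540 library was the highest of the population.

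LOC105051464 had 36.9, 10.7 and 16.8 TPM in SP540, against 0, 0.440 and 0.504 TPM in LaMe (difference 3.94, SE 0.437, adjusted p = 0.0289). It was the row called higher whose difference varied most between yield classes, from 5.25 in the low-yield pair of libraries to 3.02 in the medium-yield pair. LOC105042259 had 9.74, 7.84 and 7.04 TPM in SP540 and was listed at 0 in LaMe (3.19, SE 0.308, adjusted p = 0.0139). LOC114913993 had 12.8, 11.2 and 7.57 TPM in SP540, against 0, 0 and 0.121 TPM in LaMe (3.44, SE 0.345, adjusted p = 0.0163). LOC114913993 was listed at 0 in all 3 Yangambi libraries as well, whereas LOC105042259 had 5.41 to 8.05 TPM there. The other 4 of the 12 rows, of LOC105055213, LOC105046280, LOC105047931 and LOC105039146, belong to genes with several rows and are described with those.

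**Figure D2:**
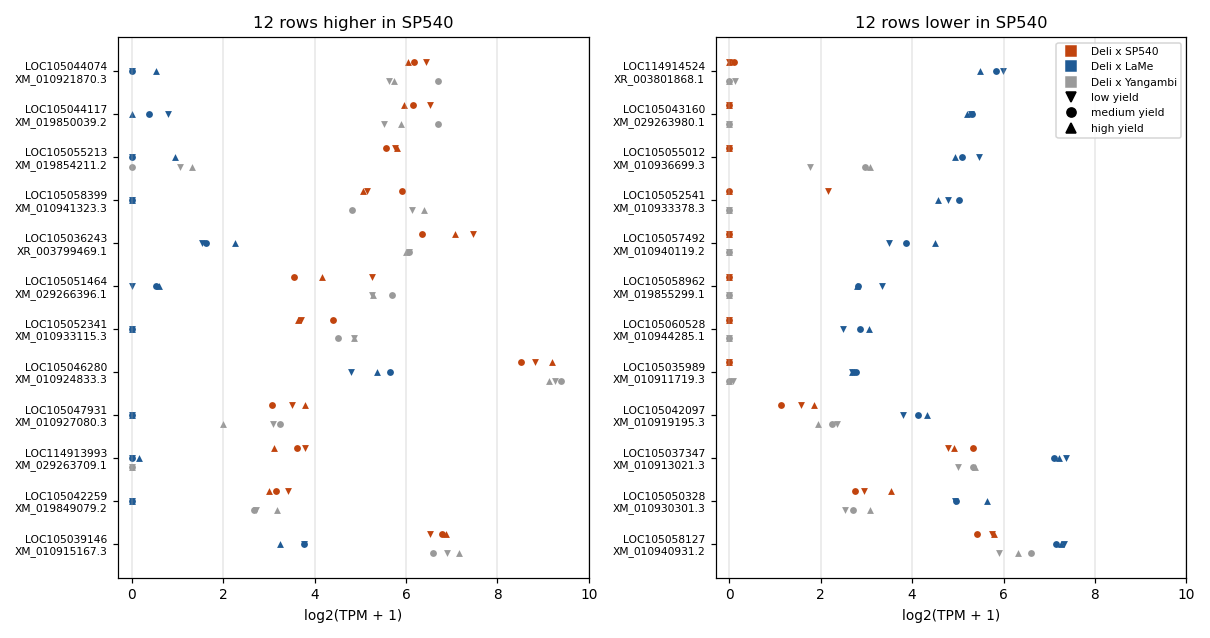
Log2(TPM + 1) on the x axis for the 12 named called rows paired with a gene that had the highest (left) and the 12 that had the lowest (right) differences, 1 row of the table per line, in Deli x SP540 (red), Deli x LaMe (blue) and Deli x Yangambi (grey) libraries of low, medium and high yield (marker shape). Red and blue points do not overlap in any line; grey points lie with red in some lines, such as LOC105044074, and with blue in others, such as LOC114913993.

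Of the rows called lower in SP540, that of LOC114914524, a long non-coding RNA gene, had the largest difference. It had 0, 0.0661 and 0 TPM in SP540, against 62.2, 55.6 and 43.6 TPM in LaMe (difference -5.73, SE 0.291, adjusted p = 0.00114). LOC105043160 was listed at 0 in all 3 SP540 libraries, against 38.0, 38.4 and 35.6 TPM in LaMe (-5.26, SE 0.291, adjusted p = 0.00115). Both were at most 0.0833 TPM in every Yangambi library, so that LaMe alone held them at a level above 1 TPM. LOC105055012 was listed at 0 in SP540, against 43.3, 32.9 and 29.4 TPM in LaMe (-5.16, SE 0.392, adjusted p = 0.00502). Yangambi libraries had 2.37, 6.79 and 7.49 TPM of this gene, between the other populations.

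LOC105052541 had 3.44, 0 and 0 TPM in SP540, against 26.65, 31.3 and 22.5 TPM in LaMe (difference -4.07, SE 0.531, adjusted p = 0.0490). The low-yield SP540 library, the only SP540 or Yangambi library above 0, set this row's wide range of differences between yield classes, from -5.02 to -2.64, the widest among called rows. Lower levels were involved for LOC105035989, listed at 0 in SP540, against 5.46, 5.796 and 5.42 TPM in LaMe (-2.71, SE 0.321, adjusted p = 0.0350). LOC105060528 was listed at 0 in SP540 for its called row, against 4.59, 6.22 and 7.34 TPM in LaMe (-2.80, SE 0.336, adjusted p = 0.0364). The LaMe values were within a narrow range in LOC105035989 and spread more widely in LOC105060528, and neither row was above 0.0470 TPM in a Yangambi library.

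A further group of genes was lower in SP540 than in LaMe without being lost. LOC105037347 had 26.6, 39.1 and 29.3 TPM in SP540, against 164, 138 and 147 TPM in LaMe, a mean ratio of 0.211 (difference -2.22, SE 0.176, adjusted p = 0.00569). LOC105050328 had 6.67, 5.75 and 10.5 TPM in SP540, against 29.8, 30.3 and 48.7 TPM in LaMe, with the same mean ratio of 0.211 (-2.11, SE 0.169, adjusted p = 0.00569). The high-yield library was the highest of both populations in the second gene. LOC105042097 had 1.94, 1.17 and 2.61 TPM in SP540, against 12.95, 16.4 and 19.1 TPM in LaMe (-2.57, SE 0.302, adjusted p = 0.0350). LOC105045386 had 22.6, 28.5 and 15.7 TPM in SP540, against 52.5, 65.8 and 40.4 TPM in LaMe (-1.23, SE 0.152, adjusted p = 0.0422). In this gene Yangambi libraries, at 50.1 to 60.5 TPM, lay within the LaMe range, while in LOC105037347 they were at 31.0 to 40.4 TPM, close to SP540. They were also nearer SP540 than LaMe in LOC105050328, at 4.77 to 7.42 TPM, and in LOC105042097, at 2.82 to 4.08 TPM.

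Rows that the gene table could not pair with a gene made up 33 of the 74. The largest differences among them that the naming rule allowed were those of XM_019847617.1 and XM_019853500.2 on the higher side and of XR_832332.2 and XM_010945241.3 on the lower side. XM_019847617.1 had 20.9, 28.9 and 38.1 TPM in SP540 and was listed at 0 in LaMe (difference 4.88, SE 0.444, adjusted p = 0.0104). XM_019853500.2 had 26.7, 31.4 and 23.2 TPM in SP540 and was listed at 0 in LaMe as well (4.80, SE 0.350, adjusted p = 0.00405). The non-coding model XR_832332.2 was listed at 0 in SP540, against 42.5, 42.8 and 43.2 TPM in LaMe (-5.45, SE 0.596, adjusted p = 0.0289). Its LaMe libraries lay within 1 TPM of each other. XM_010945241.3 had 0.00116, 0.0376 and 0.0169 TPM in SP540, against 12.5, 3.965 and 15.3 TPM in LaMe (-3.34, SE 0.418, adjusted p = 0.0455). Another called row, XM_010945243.3, had identical values in all 9 libraries, so the 2 rows amount to 1 measurement. Yangambi libraries had 14.8 to 36.9 TPM of XM_010945241.3, so that SP540 alone was low, but 0 to 5.045 TPM of XR_832332.2. They had 13.2 to 44.7 TPM of XM_019847617.1 and 11.9 to 39.4 TPM of XM_019853500.2.

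By abundance, the called rows were led by models at high TPM. XM_010924833.3 of LOC105046280 and XM_010941555.3 of LOC105058589, described below, were the most abundant on the higher side. XM_010912958.3 followed with 156, 153 and 194 TPM in SP540, against 17.1, 19.7 and 9.69 TPM in LaMe (difference 3.40, SE 0.262, adjusted p = 0.00520). XM_010918967.3 had 137, 161 and 157 TPM in SP540, against 11.9, 12.8 and 9.35 TPM in LaMe (3.64, SE 0.167, adjusted p = 0.00108), a mean ratio of 13.4. Both were at over 100 TPM in each Yangambi library, near the SP540 level. XM_010917367.1 gave the smallest difference of any row called higher, with 110.05, 117 and 101 TPM in SP540, against 55.0, 51.5 and 60.7 TPM in LaMe (0.96, SE 0.125, adjusted p = 0.0468). On the lower side, XM_029266779.1 was the most abundant row, with 67.9, 109.9 and 65.9 TPM in SP540, against 372, 344 and 346 TPM in LaMe (-2.15, SE 0.236, adjusted p = 0.0289). Its Yangambi libraries, at 102.5 to 149.6 TPM, overlapped the SP540 range and lay below LaMe.

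**Figure D3:**
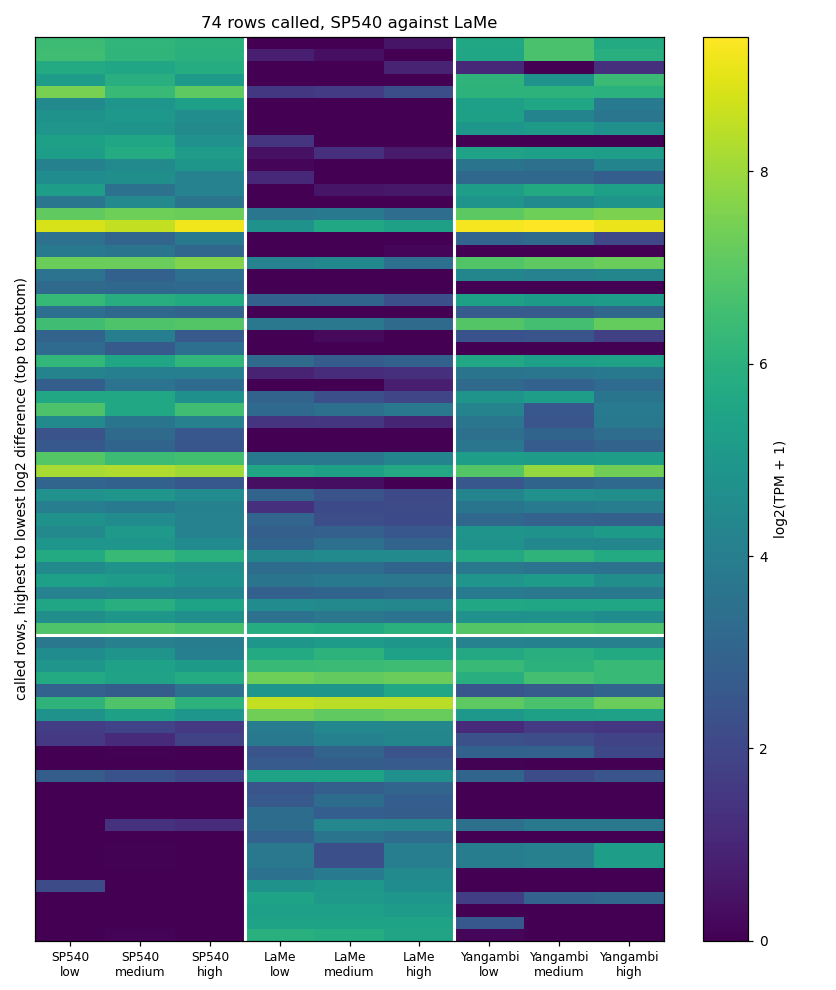
Log2(TPM + 1), as colour, of the 74 called rows (1 per line, from the highest to the lowest log2 difference) in the 9 libraries, with SP540 at the left, LaMe in the middle and Yangambi at the right. The 49 rows above the white line were higher and the 25 below it lower in SP540; the SP540 and LaMe libraries were those tested, and Yangambi levels are shown for comparison.

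The 41 called rows paired with a gene belonged to 39 genes, and 14 of these genes had 2 or more rows above 0 TPM. For such genes the level of a row can differ while the sum over the gene differs less or not at all. When the rows of each gene were summed and tested in the same way, 129 of 25145 features were called (0.513%), and 10 of the 14 genes were not among them. A sum that was not called is not shown to be equal. For LOC105034999 the sums were 51.5, 46.5 and 42.2 TPM in SP540, against 24.2, 22.6 and 27.9 TPM in LaMe (0.88, limma adjusted p = 0.101). Sums in SP540 also lay above LaMe without overlap for LOC105050026 and LOC105058589, and below it for LOC105057492. The sum was called for LOC105050012, LOC105039806, LOC105058127 and LOC105060528. LOC105058127 is an example of a gene lower as a whole, since its rows summed to 145 ± 8.11 TPM in SP540, against 323 ± 67.2 TPM in LaMe (SD, n = 3 each; gene sum difference -1.13, SE 0.155, adjusted p = 0.0394). Its called row had 52.7, 41.6 and 54.4 TPM in SP540, against 159.7, 140.1 and 151 TPM in LaMe (-1.59, SE 0.204, adjusted p = 0.0468).

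LOC105055213 was the clearest case of rows that moved apart. XM_019854211.2 had 52.8, 45.9 and 55.1 TPM in SP540, against 0, 0 and 0.920 TPM in LaMe (difference 5.39, SE 0.337, adjusted p = 0.00205). XM_010936971.3 of the same gene had 29.0, 40.6 and 33.4 TPM in SP540, against 80.01, 83.9 and 88.4 TPM in LaMe (-1.28, SE 0.162, adjusted p = 0.0468). The first row thus held 47.2% of the gene's TPM in SP540 and 0.287% in LaMe on average, and the second held 31.7% in SP540 and 78.2% in LaMe. The gene sum was 109 TPM in SP540 and 108 TPM in LaMe, with a difference of 0.012 (SE 0.116, adjusted p = 0.987). Yangambi libraries had at most 1.49 TPM of XM_019854211.2 and at least 64.1 TPM of XM_010936971.3, the pattern of LaMe.

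LOC105058962 had 2 rows with called differences of opposite sign. XM_019855298.2 had 6.20, 11.1 and 8.70 TPM in SP540, against 0, 0 and 0.742 TPM in LaMe (difference 2.97, SE 0.337, adjusted p = 0.0289). XM_019855299.1 was listed at 0 in SP540, against 9.04, 6.06 and 5.87 TPM in LaMe (-2.98, SE 0.336, adjusted p = 0.0289). Only the high-yield LaMe library had both rows above 0. The gene sum was 8.66 TPM in SP540 and 7.24 TPM in LaMe (0.21, SE 0.266, adjusted p = 0.839), and Yangambi libraries had only the first row, at 6.75 to 8.65 TPM.

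The balance between a row and the other rows of its gene was then tested directly, as log2(row TPM + 1) minus log2(TPM of the gene's other rows + 1), over 9216 rows of 3716 genes. This test called 3 rows (0.0326%), which are the called row of LOC105055213 that was higher in SP540 (difference in balance 6.28, SE 0.475, limma adjusted p = 0.0113) and both rows of LOC105058962 (5.95, SE 0.512, adjusted p = 0.0147, and -5.95, SE 0.542, adjusted p = 0.0152). With 2 rows in a gene the balance of each is the mirror of the other. An unadjusted p under 0.05 was reached by 649 rows. All 3 calls were lost without the low-yield or medium-yield SP540 library, or without any 1 of the 3 LaMe libraries. Leaving out the high-yield Yangambi library did the same. In these fits 0 rows passed and 556 to 650 rows had an unadjusted p under 0.05. A left-out library also leaves less data to estimate the spread between libraries, and the cause of the loss was not tested. Without the high-yield SP540 library, the calls were the row of LOC105055213 and a row of LOC105054340, and LOC105058962 was not called. With only the 6 SP540 and LaMe libraries in the fit, 2 rows were called, both of LOC105058589, and none of these 3.

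**Figure D4:**
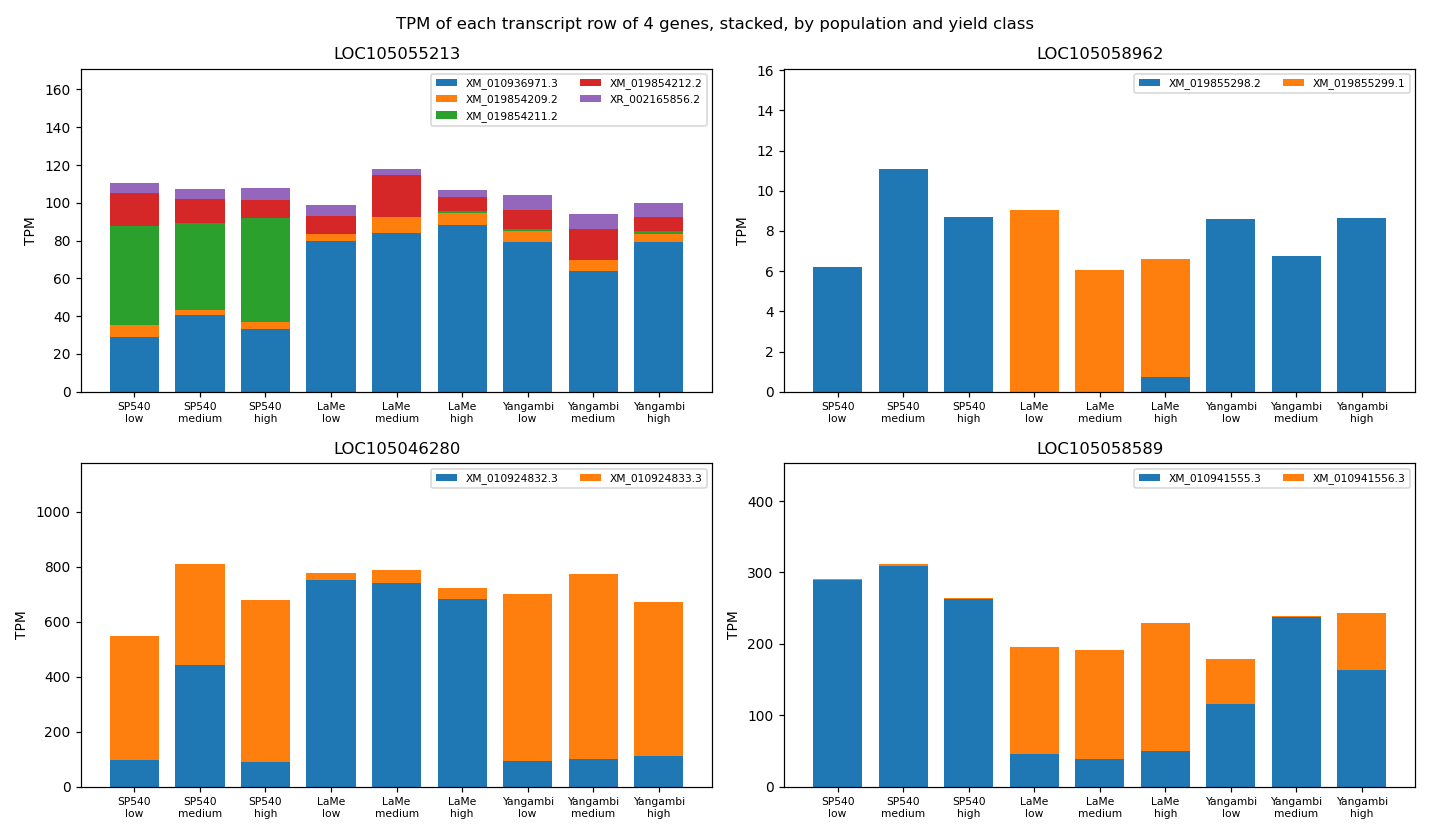
TPM (y axis) of each transcript row of LOC105055213, LOC105058962, LOC105046280 and LOC105058589, stacked, in each of the 9 libraries (x axis: population and yield class). The stack heights of SP540 and LaMe libraries overlap for the first 3 genes, while the rows that make them up differ; rows at 0 in all 9 libraries are left out.

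LOC105046280 was the most abundant gene of this kind. XM_010924833.3 had 450.03, 367 and 589 TPM in SP540, against 26.7, 49.2 and 39.99 TPM in LaMe, a mean ratio of 12.1 (difference 3.58, SE 0.241, adjusted p = 0.00319). Its other row, XM_010924832.3, had 97.5, 443 and 91.5 TPM in SP540, against 750.3, 740.3 and 683 TPM in LaMe (-2.19, SE 0.466, adjusted p = 0.182). The medium-yield SP540 library stood apart from the other SP540 libraries in this second row. The gene sum was 679.6 TPM in SP540 and 763 TPM in LaMe (-0.18, SE 0.134, adjusted p = 0.68), and the first row held 71.4% of it in SP540, 5.06% in LaMe and 85.7% in Yangambi.

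LOC105058589 had a similar arrangement of rows. XM_010941555.3 had 289, 309 and 263 TPM in SP540, against 45.7, 39.05 and 49.7 TPM in LaMe (difference 2.65, SE 0.235, adjusted p = 0.00944). XM_010941556.3 had 2.18, 3.30 and 1.64 TPM in SP540, against 149.6, 153 and 179.7 TPM in LaMe. SP540 and LaMe did not come near each other in this second row, yet it was not called (-5.61, SE 1.03, adjusted p = 0.131). Yangambi libraries spread from 1.79 to 80.2 TPM there, and in a fit of only the SP540 and LaMe libraries the row was called (SE 0.219, adjusted p = 0.0156). The gene sum was 289 TPM in SP540 and 206 TPM in LaMe (0.49, SE 0.147, adjusted p = 0.277). In LOC105039146, XM_010915167.3 had 91.3, 110.01 and 117 TPM in SP540, against 12.7, 12.5 and 8.53 TPM in LaMe (3.14, SE 0.223, adjusted p = 0.00384). Its share of the gene was 30.3% in SP540 and 3.33% in LaMe, and the gene sums were 349 TPM in SP540 and 339 TPM in LaMe.

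LOC105047931 and LOC105057492 each had a row that was listed at 0 or nearly so in a population. XM_010927080.3 of LOC105047931 had 10.4, 7.39 and 12.9 TPM in SP540 and was listed at 0 or below 0.001 TPM in LaMe (difference 3.46, SE 0.416, adjusted p = 0.0380). The gene sum was 12.005 TPM in SP540 and 10.96 TPM in LaMe, the other row holding all but a trace of the gene in LaMe. XM_010940119.2 of LOC105057492 was listed at 0 in SP540, against 10.2, 13.5 and 21.8 TPM in LaMe (-3.95, SE 0.359, adjusted p = 0.00974). It held 25.4% of the gene in LaMe and was listed at 0 in Yangambi too. The gene sum was 42.2 TPM in SP540 and 58.3 TPM in LaMe (-0.45, SE 0.158, adjusted p = 0.343). In LOC105055144, named after its values were seen, XM_029267611.1 had 4.29, 8.47 and 4.80 TPM in SP540 and was listed at 0 in LaMe (2.73, SE 0.345, adjusted p = 0.0455), while the gene sum was 20.2 TPM in SP540 and 19.9 TPM in LaMe. kallisto, which the submitters' processing notes name, estimates how reads shared by several transcripts divide between these, so a shift between rows of a gene is less certain than its sum.

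Rows that were low in a population and present in the other were counted over all 30576 tested rows, called or not. There were 108 rows with at least 1 TPM in all 3 SP540 libraries and under 0.1 TPM in all 3 LaMe libraries, and 69 rows with the reverse pattern. Of the 108 rows, 24 (22.2%) were non-coding models, and of the 69 rows, 16 (23.2%) were. Among all tested rows, 3555 of 30576 were. Most of these rows were at low levels, with a median of the mean TPM of 3.45 in SP540 for the 108 rows and of 3.05 in LaMe for the 69 rows. In 38 of the 55 paired rows among the 108, another row of the gene was at 1 TPM or more in every LaMe library, so that the gene was not silent there. The like number was 23 of 41 in SP540 for the reverse pattern. In all 3 Yangambi libraries, 27 of the 108 rows were at 1 TPM or more and 18 were under 0.1 TPM. Of the 69 rows, 7 were at 1 TPM or more and 24 were under 0.1 TPM in all 3 Yangambi libraries. Called rows numbered 12 among the 108 and 13 among the 69, against 0.242% of all tested rows. The 108 and the 69 rows were picked from the same SP540 and LaMe values as the calls, so a raised share was built in.

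Size alone did not make a call. Of the 31 rows with a difference of at least 4 in either direction, 14 were not called. SP540 and LaMe libraries did not overlap in any of the 14. These rows were picked for a large difference between the same libraries, so this non-overlap was largely built in. Across all tested rows, 11.2% had SP540 above LaMe without overlap and 5.72% had it below. The genes given next were named after their values were seen. LOC105032586 had 113, 106 and 86.9 TPM in SP540, against 0.924, 1.05 and 1.17 TPM in LaMe, but 78.0, 99.6 and 0 TPM in Yangambi (difference 5.64, SE 1.32, adjusted p = 0.222). With only the SP540 and LaMe libraries in the fit it was called (SE 0.188, adjusted p = 0.0156). LOC105056386 had 0, 0.505 and 35.9 TPM in SP540, against 530.2, 299 and 314 TPM in LaMe (-6.59, SE 1.23, adjusted p = 0.132), and it was not called in that fit either (adjusted p = 0.231). The 9-library fit takes its spread from Yangambi as well. Of the 14 rows, 10 were called in neither fit.

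Some called genes lay near each other in the order of genes in the reference. LOC105044074 is next to LOC105044117, and LOC105036773 is next to LOC105036243, with no listed gene between them. LOC105036773 had 119, 85.7 and 92.3 TPM in SP540, against 13.04, 12.4 and 17.9 TPM in LaMe (difference 2.70, adjusted p = 0.00222). LOC105034610, with 28 genes between it and LOC105036773, was also higher, at 107, 48.0 and 89.4 TPM in SP540, against 8.26, 10.02 and 12.5 TPM in LaMe (2.81, adjusted p = 0.0350). All 5 genes were higher in SP540. Of the genes that follow LOC105036243, LOC105034598 and LOC105034597 were tested and were not called. LOC105034598 averaged 11.9 TPM in SP540 and 5.55 TPM in LaMe (0.96, adjusted p = 0.296 for the gene sum). LOC105034597 averaged 1.79 TPM in SP540 and 2.21 TPM in LaMe (-0.23, adjusted p = 0.854). The genes listed just before LOC105036773, and those on either side of LOC105044074 and LOC105044117, were not tested. How far such stretches reach could therefore not be seen. LOC105050012 and LOC105050026, with 16 genes between them, each had a row called higher. Summed over their rows, LOC105050012 was called and LOC105050026 was not (0.93, SE 0.198, adjusted p = 0.15). The called row of LOC105050012 had 29.4, 28.6 and 22.4 TPM in SP540, against 7.11, 9.97 and 6.95 TPM in LaMe, and that of LOC105050026 had 20.7, 31.9 and 17.1 TPM in SP540, against 6.19, 6.33 and 4.89 TPM in LaMe. In the remaining cases with at most 39 genes between them the called genes moved in opposite directions, which were LOC114914135 and LOC105043160 with 38 genes between them and LOC105033290 and LOC105042097 with 35. These gene pairs were picked out for their position after the calls were known, and whether they are near-identical copies whose reads could be confused was not tested.

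Non-coding models were 11 of the 74 called rows, 9 higher and 2 lower in SP540. They were 0.309% of the 3555 non-coding rows tested, against 0.233% of the 26996 predicted mRNA rows and 0.242% of all rows. The median difference was 0.17 for non-coding and 0.08 for predicted mRNA rows. Unpaired rows were called in 33 of 9846 cases (0.335%), against 41 of 20730 paired rows (0.198%). None of the 25 curated mRNA rows was called by limma, 2 had an unadjusted p under 0.05, and their median difference was 0.012.

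Genes with a symbol or a synonym in the gene table numbered 31, of which 21 had tested rows, 25 in all. None of the 25 rows passed the limma test over all tested rows, against 0.242% in all, and 3 rows had an unadjusted p under 0.05. ADPRF, an ADP-ribosylation factor of the kind that directs vesicle traffic, had 172, 155 and 175 TPM in SP540, against 112, 135 and 103 TPM in LaMe (difference 0.53, SE 0.133, adjusted p = 0.257). Its SP540 and LaMe libraries did not overlap, and its Yangambi libraries were at 165 to 173 TPM. EF1, the translation elongation factor that brings aminoacyl-tRNA to the ribosome, had a predicted row, XM_010924230.3, at 111, 119.6 and 62.8 TPM in SP540, against 63.6, 72.8 and 37.5 TPM in LaMe (0.75, SE 0.289, adjusted p = 0.455). The populations overlapped, but SP540 was above LaMe in each yield class. The curated EF1 row leaned the other way, with 370.2, 330.4 and 557 TPM in SP540, against 692, 605 and 390.1 TPM in LaMe (-0.42, SE 0.291, adjusted p = 0.715), and both groups spread widely.

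The third row was the curated model of dxs, whose enzyme opens the plastid route to isoprenoids, at 0.520, 0.899 and 0.881 TPM in SP540, against 2.25, 1.54 and 2.87 TPM in LaMe (difference -0.85, SE 0.342, adjusted p = 0.465). The predicted dxs row was more abundant and uneven, at 4.92, 7.95 and 11.6 TPM in SP540, against 0.0547, 6.02 and 12.1 TPM in LaMe. Summed, the gene's difference was 0.31 (adjusted p = 0.894). EF1B, another translation elongation factor subunit, averaged 517 ± 158 TPM in SP540 and 747 ± 114 TPM in LaMe (SD, n = 3 each; -0.57, SE 0.247, adjusted p = 0.513). Among lipid, water and oxygen genes, GPAT, which starts glycerolipid assembly, averaged 135 ± 7.88 TPM in SP540 and 115 ± 15.5 TPM in LaMe (0.24, SE 0.146, adjusted p = 0.664). The aquaporin AQP, a membrane water channel, averaged 576 ± 117 TPM in SP540 and 558 ± 86.9 TPM in LaMe (0.04, SE 0.18, adjusted p = 0.978). MnSOD, which removes superoxide, averaged 125 ± 64.6 TPM in SP540 and 147 ± 55.2 TPM in LaMe (-0.28, SE 0.356, adjusted p = 0.865). For CAT2 the difference was -0.05 (SE 0.188, adjusted p = 0.973), and for the actin gene ACT1 it was 0.34 (SE 0.197, adjusted p = 0.641). The overlap of the populations was wide for AQP, MnSOD and CAT2, and the highest value of the 10 genes with a short name but no tested row was 0.971 TPM.

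The number of called rows fell when any 1 library was left out. It was 33, 34 and 32 with the SP540 library of low, medium and high yield left out in turn, without the LaMe libraries in that order 31, 37 and 24, and without the Yangambi libraries 49, 51 and 52. Rows called lower numbered 5, 6 and 3 without the LaMe libraries of low, medium and high yield, against 25 with all libraries. Of the 24 rows called without the high-yield LaMe library, 22 were among the 74. Only 26 rows were called with the 6 SP540 and LaMe libraries alone, 22 of them among the 74. The unadjusted 95% interval of a tested row had a median width of 0.81 on each side of its difference.

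**Figure D5:**
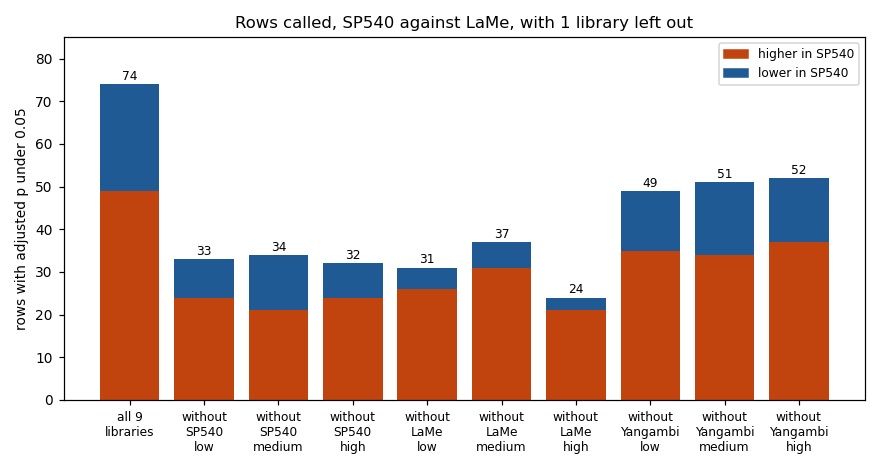
Number of rows with an adjusted p under 0.05 (y axis) with all 9 libraries and with each library left out in turn (x axis), split into rows higher (red) and lower (blue) in SP540. The number was 74 with all libraries and between 24 and 52 with a library left out.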

How the data were processed

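Leaf mRNA libraries of 9 samples, 1 for each of 3 populations and 3 yield classes, were sequenced after TruSeq mRNA library preparation, per the labels' protocols. The authors deposited a table of TPM values for RefSeq transcript accessions. The submitters' processing notes name fastp, kallisto and DESeq2, with no version or order; the transcript set is not given in the sources used here, and DESeq2 was not used here. Accessions were paired with genes through a RefSeq gene table of assembly EG11, ignoring the version; it holds no product descriptions, so lists by product were not applied. Libraries were grouped by the population label. Rows with at least 1 TPM in 3 of 9 libraries were fitted on log2(TPM + 1) with limma 3.58.1 in R 4.3.3 (trended, robust prior; terms population and yield class), and p-values, which are two-sided, were adjusted by Benjamini-Hochberg over all tested rows. The residual degrees of freedom were 4. The step was run on simulated data with normal noise and no floor at 0, and differences were added only to rows at higher levels. It therefore does not cover called rows listed at or near 0 TPM in a population. Depth is unknown, so no counting error can be given. Yield class was kept as a term because the comparison pairs libraries by class; deviations of same-class SP540 and LaMe libraries from their population means correlated at -0.0145, -0.0275 and 0.0472, all under 0.1, so the classes are no evidence of shared origin. Named rows were called, had a mean of at least 5 TPM in the higher population and no overlap, and were taken by size of difference, up to 12 per direction among paired and 2 among unpaired rows; the 5 most abundant called rows per direction, rows called for isoform balance and symbol genes with an unadjusted p under 0.05 were added. The members, lists and rules were chosen with earlier results of these data known. Alternatives covered the pseudocount, filter, scaling, libraries in the fit, pairing, gene sums, prior and left-out libraries.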

Additional observations from a re-analysis of the deposited data

How the results depend on the processing

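The 74 called rows became 48 with a pseudocount of 0.1, 44 without a filter on low values and 26 with only the 6 compared libraries, of which 42, 44 and 22 were among the 74. Summing rows by gene gave 129 calls. In the fit without the replicate block of yield class, the unpaired form, 201 rows were called, 73 of them among the 74. Leaving out a library or a whole yield class gave 0 to 52 calls, with 0, 0 and 3 without the low, medium and high class, where 2731, 2396 and 2150 rows had an unadjusted limma p under 0.05. Other settings gave 73 to 108 calls. The 108 came with the filter applied to the 6 compared libraries only, where 28154 rows were tested and all 74 were among the calls. Size factors gave 75 calls and quantile scaling 73, of which 70 and 68 were among the 74. These scalings moved the share higher in SP540 to 60% and 58.9%, from 66.2%. That share was 56.8% without trend and robust prior, and 83.9%, 83.8% and 87.5% without the low, medium and high LaMe library. The 3 isoform balance calls became 0 with a pseudocount of 0.1 (575 at an unadjusted p under 0.05), 11 with a pseudocount of 5, 8 without the replicate block, 2 with only the 6 compared libraries (0 of the 3 among them), 4 with a mean of at least 5 TPM (1 of the 3, that of LOC105055213), and 0 to 5 with a library or class left out. With limits of 0.5 and 5 TPM, 28 rows were present in SP540 and low in LaMe, and 15 were the reverse. Gene sums turned the sign for NM_001303573.1 (0.31), XM_010924230.3 (-0.23), XM_010924833.3 (-0.18), XM_010936971.3 (0.012) and XM_019855299.1 (0.21), because these sums include the other rows of each gene. No other named row changed sign. Of 891 values of named rows under the alternatives, 332 kept the sign but lost the call, and 0 gained one. The turned values of XM_010924833.3, XM_010936971.3 and XM_019855299.1 under gene sums lost the call as well. Each of the 36 called named rows lost it at least 2 times, and XM_010917367.1 did so 18 times. Apart from the gene sums, the cause was not tested. The comparison of similar proteins and the lists by product description were not run. Depth is unknown, so which low rows it limits could not be worked out.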
